A study of Drosophila melanogaster with 35 samples.

Results

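The probes described here are 904 of the 9993 spots of a Drosophila cDNA array, which is 9.05% of the array. They were taken by identifier alone: each carries the AT prefix of the adult testis cDNA library. They were measured in Kc167, an established cell line derived from embryos, so the genes of a testis library were followed in cells that are not testis. The array was used for DamID, in which a chromatin protein is fused to the bacterial adenine methyltransferase Dam and leaves methylated DNA near the places it visits. Each of the 35 arrays gives, per probe, the log ratio of methylated DNA from cells with the Dam fusion over that from cells with Dam alone, read here as log2.

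The arrays fall into 11 groups, and every fusion, made from the full-length protein with a Myc tag, came from a plasmid transfected into Kc167 cells. HP1 was mapped on 4 arrays, Su(var)3-9 on 3, HP3 on 4, HP4 on 4, HP5 on 4 and HP6 on 3. Jra, a transcription factor mapped as a protein outside heterochromatin, has 3 arrays. HP3 was also mapped on 3 arrays after knock-down of HP1 and on 3 after knock-down of white, the control, and HP6 on 2 and 2 arrays. The labels do not say whether replicates came from separate transfections, so p-values measure the spread between arrays, which may be technical. Nor do they say whether arrays shared Dam-only DNA.

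As background, heterochromatin is the compact chromatin that lies around centromeres, at telomeres and along the fourth chromosome of the fly. Su(var)3-9 is a histone methyltransferase that marks lysine 9 of histone H3, and HP1 binds that mark, so the 2 proteins are the classical pair of this chromatin. Many genes used in the male germ line are silent in other tissues and lie in clusters along the chromosome arms, where other kinds of repressive chromatin have been described.

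Of the testis-library probes, 805 stand for 1 gene each (802 genes in all), 29 match several genes and 70 are unnamed here. No gene of chromosome 4 is among them, against 61 other probes of that chromosome. Among the 100 genes nearest the centromere of each arm they hold 19 probes, against 250 other probes, and the remaining arms hold 776, against 7433. On the X lie 105 of them, on 2L 176, on 2R 158, on 3L 150 and on 3R 206. Against lists of known testis genes the prefix matched in part. Of the genes on the array, 9 of 10 testis proteasome subunit genes, 5 of 5 testis paralogues of respiratory chain genes and 10 of 17 sperm tail and axoneme genes sit on testis-library probes. For genes of spermatocyte translation and meiotic division it was 7 of 13, for meiotic arrest genes 3 of 8, for sperm chromatin genes 2 of 4 and for sperm leucylaminopeptidases 1 of 3. For genes of the early germ line and the piRNA pathway, which also work in the ovary, the figure was 1 of 13. The genes of the fusion proteins have no testis-library probe.

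A pair of arrays stood apart. On the array labelled HP3 replicate 2 the probe of Lhr, the gene of HP3, read only 0.09, and the array correlated with no other array above 0.0875. On the array labelled HP6 replicate 3 the HP4 probe read 4.81, where the next value outside the HP4 arrays was 1.25, and the array correlated at 0.912 with HP4 replicate 4. Results for HP3 and HP6 are therefore given with and without them.

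In the fit over all arrays, Su(var)3-9 had the highest number of bound testis-library probes, 262, followed by HP4 with 228 and HP5 with 204. A probe is called bound here when the mean of its ratios over the arrays of a protein was above 0 in a limma fit over 9934 probes, with a Benjamini-Hochberg adjusted p under 0.05, and all 904 testis-library probes were tested. Su(var)3-9 thus bound 29.0% of them, where 15.8% of all probes were called. Only 71, or 7.85%, lay below 0, where 17.4% of all probes did. Of the 9030 other probes, 14.5% were bound and 18.3% lay below 0. Leaving out 1 Su(var)3-9 array gave 156 to 184 bound probes, fewer than HP4 and HP5 had with all arrays, so that the rank among the proteins rests on all 3 arrays. The share stayed above that of all probes each time: without replicate 1 it was 156 probes (17.4%, against 8.21% of all probes), and without replicate 2 it was 168 (18.6%, against 10.1%).

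HP1, HP3 and HP6 did not share this excess. HP1 bound 61 testis-library probes, or 6.75%, where 8.48% of all probes were called, and 25 lay below 0 (2.77%, where 2.95% of all probes did). HP3 bound 19 (2.10%, against 4.38% of all probes), with 15 below 0 (1.66%, against 2.31%). HP6 bound 49 (5.42%, against 7.05%), with 19 below 0 (2.10%, against 3.33%). These shares lay at or under the background in the direction above 0. Without the doubted arrays, HP3 bound 22 probes (2.43%, against 4.90% of all probes) and HP6 bound 31 (3.43%, against 4.78%). The HP3 probes below 0 then numbered 41 (4.54%, against 4.20%) and those of HP6 numbered 7 (0.774%, against 1.20%).

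For HP4 and HP5, which were mapped as interaction partners of known heterochromatin proteins, more testis-library probes than the background lay above 0 and fewer below 0, as with Su(var)3-9, but the excess above 0 rested on single arrays. HP4 bound 228 testis-library probes (25.2%, where 19.7% of all probes were called) and HP5 bound 204 (22.6%, where 18.4% were). Without HP4 replicate 2, an array whose correlation with the other HP4 arrays ran from 0.40 to 0.422, HP4 bound 132 (14.6%, against 14.8% of all probes). Without HP5 replicate 2 the figure for HP5 was 96 (10.6%, against 12.8%), and without HP5 replicate 1 it was 119 (13.2%, against 11.6%). What held on every such refit was the shortage of probes below 0: HP4 had 112 there (12.4%, where 21.8% of all probes were) and HP5 had 72 (7.96%, where 18.7% were). For HP5 that number was 28 without replicate 1 (3.10%, against 10.7% of all probes).

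Jra showed the opposite picture. It bound 34 testis-library probes, or 3.76%, where 10.8% of all probes were called, and 135, or 14.9%, lay below 0, where 6.3% of all probes did. Without Jra replicate 1 the numbers were 17 above and 58 below 0, and without replicate 2 they were 16 and 34, so single arrays moved them by more than 1.5 times. The shares kept their side of the background each time, at 6.43% below 0 against 2.07% of all probes without replicate 1, and 3.78% against 1.62% without replicate 2.

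**Figure D1:**
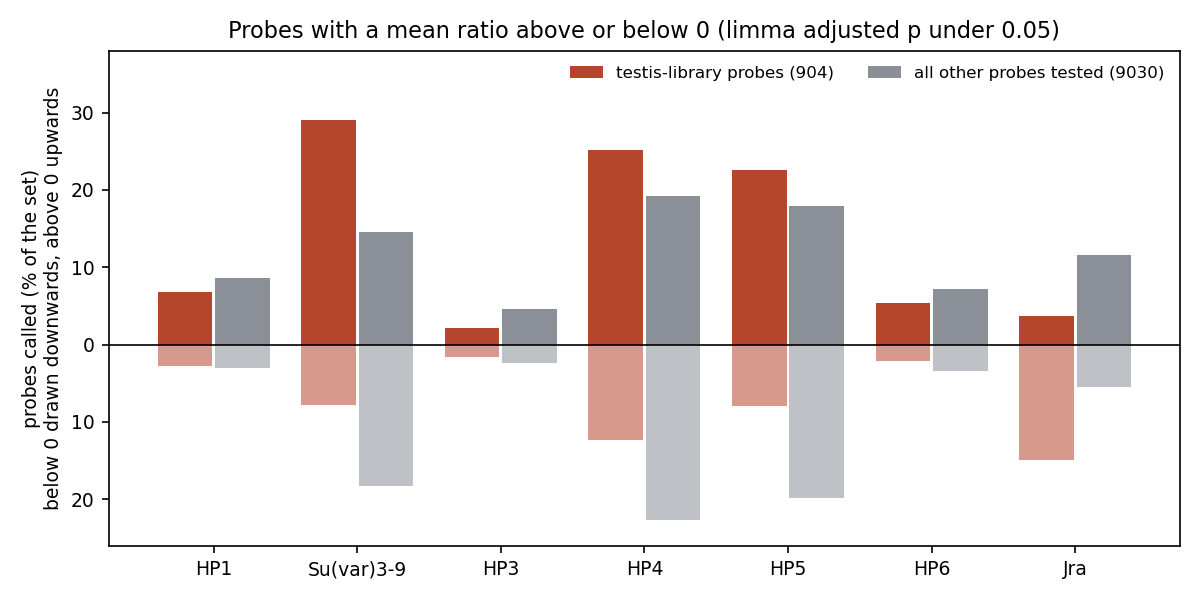
The bars give the percentage of probes called above 0 (drawn upwards) and below 0 (drawn downwards, paler) for 7 proteins, in testis-library probes (904) and in all other probes tested (9030). The widest gaps above 0 are those of Su(var)3-9 (29.0% against 14.5%) and, the other way round, Jra (3.76% against 11.6%).

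The same contrast was visible on single arrays without any test. For each array the median ratio of the testis-library probes was set against that of the other probes. With Su(var)3-9 the difference was 0.25, 0.22 and 0.23 on the 3 arrays, a mean of 0.24 ± 0.02 (SD, n = 3). With Jra it was -0.17, -0.29 and -0.16, a mean of -0.21 ± 0.07 (SD, n = 3). All 3 arrays lay above 0 with Su(var)3-9 and all 3 below 0 with Jra, and in each group both dye orientations were present.

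With HP1 the sign of this difference followed the dye. It was -0.12 on both arrays with the fusion in Cy3, and 0.29 and 0.16 on those with the fusion in Cy5, so that the mean of 0.05 ± 0.20 (SD, n = 4) stood for no array. HP3 gave -0.28 and -0.02 with the fusion in Cy3, and 0.04 and 0.08 with it in Cy5. The HP1 and HP3 arrays thus held no difference of 1 sign. HP4 lay above 0 on all 4 arrays, at 0.04, 0.44, 0.14 and 0.14, and so did HP5, at 0.11, 0.34, 0.13 and 0.12. HP6 gave -0.22, 0.14 and 0.14, the last on the doubted array. The dye term of the fit, as Cy5 minus Cy3, had a median of 0.06 over testis-library probes and 0.02 over other probes, and it passed for 1 and 64 of them.

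**Figure D2:**
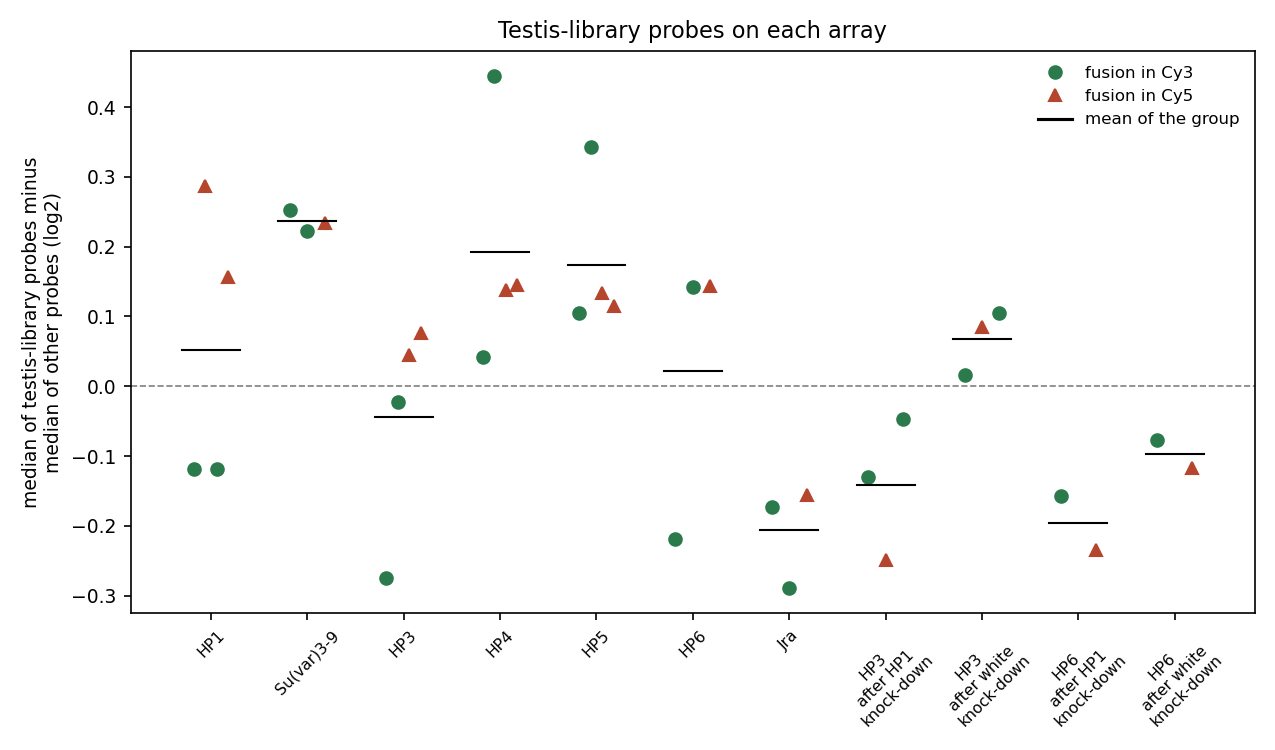
Each point is 1 array and gives the median log2 ratio of the testis-library probes minus that of all other probes, by group, with circles for the fusion in Cy3, triangles for Cy5 and a bar for the mean. The 3 Su(var)3-9 points lie between 0.22 and 0.25 and the 3 Jra points between -0.29 and -0.16, while the HP1 points split by dye.

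Most testis-library probes lie away from the centromeres. On the arms Su(var)3-9 bound 28.7% of testis-library probes, against 13.3% of other probes. By arm its share in testis-library probes ran from 22.0% on 3L to 33.5% on 2R, against 12.8% to 15.2% of other probes, and it was the higher share on X, 2L, 2R, 3L and 3R alike. HP1 on the arms bound 5.67% of testis-library probes and 6.38% of other probes. Near the centromeres, HP1 bound 3 of 19 testis-library probes (15.8%) but 42.0% of the other probes, and Su(var)3-9 bound 7 of 19 (36.8%) and 29.6% of the others. Of the 70 unnamed testis-library probes, HP1 bound 13 (18.6%) and Su(var)3-9 bound 23 (32.9%). Of the 936 unnamed probes of other libraries they bound 12.6% and 17.1%, so HP1 had a share above its 8.48% of all probes in both sets. Where they lie in the genome was not analysed here.

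Most Su(var)3-9 calls came without an HP1 call. Su(var)3-9 was called without HP1 on 225 testis-library probes, or 24.9%, against 874 other probes, or 9.68%. Both proteins were called on 37, or 4.09%, against 433, or 4.80%, of the other probes. Among probes bound by Su(var)3-9, HP1 was also called on 14.1% of those from the testis library and on 33.1% of the others. By level these sets differed less, with median HP1 ratios of 0.17 and 0.21, both above 0. Jra was called above 0 on 2 of the 262 (0.763%), against 62 of 1307 other probes (4.74%). It lay below 0 on 24 of the 262 (9.16%), a smaller share than on testis-library probes that Su(var)3-9 called neither way. There it lay below 0 on 106 of 571 (18.6%). At least 1 of the 6 heterochromatin proteins bound 389 testis-library probes (43.0%), against 2785 of the others (30.8%), but all 6 were called together on only 11 (1.22%), against 199 (2.20%). Because the arrays may share Dam-only DNA, these joint counts are given as counts alone.

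The other cDNA libraries of the array place these numbers. Su(var)3-9 bound a larger share of testis-library probes, 29.0%, than of any of the other 7 prefixes, which ran from 9.64% for the Schneider cell library (SD) to 23.0% for RH. By level it was not the highest: the median Su(var)3-9 ratio was 0.21 in the testis library and 0.29 in RH, which also had few probes below 0 (8.45%). For Jra below 0 the testis library was also highest, at 14.9%, against 3.08% to 10.7%. The HP4 and HP5 shares were not highest there: RH had 34.2% for HP4 and 40.6% for HP5, and RE had 26.6% and 29.4%. HP1 bound 12.3% of SD probes, 10.1% of embryo (LD) probes and 4.77% of RH probes, with the testis library at 6.75%. The libraries differed from each other for every protein, and the part that library preparation, insert length or spot quality plays in this was not tested.

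**Figure D3:**
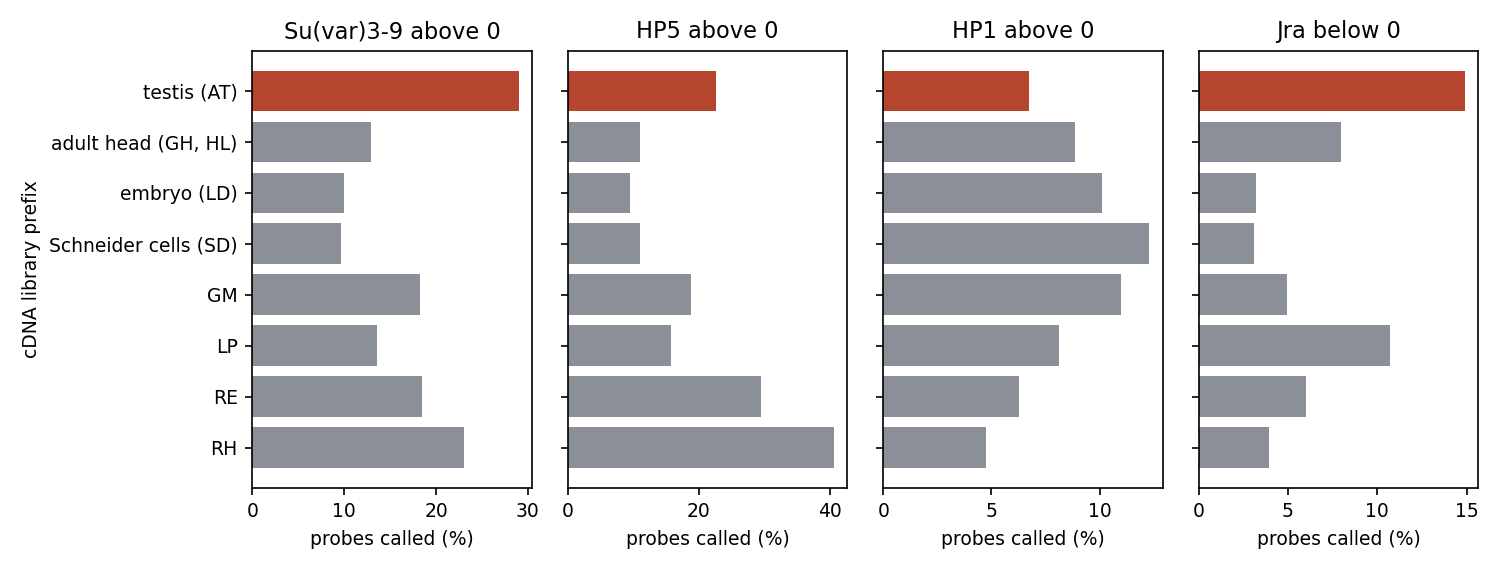
Bars give the percentage of probes called, by cDNA library prefix, above 0 for Su(var)3-9, HP5 and HP1 and below 0 for Jra. The testis library has the longest bar for Su(var)3-9 (29.0%) and for Jra (14.9%), RH for HP5 (40.6%) and Schneider cells for HP1 (12.3%).

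For 69 genes both a testis-library probe and a probe of another library were tested. Across these genes the mean over the 6 heterochromatin proteins correlated at r = 0.762 between the 2 probes, which share arrays, and 62 genes agreed within 0.5. By single protein r was lower, from 0.367 for HP3 to 0.727 for HP6, with Jra at 0.465. The median difference of testis-library minus other probe was 0.06 for Su(var)3-9, 0.12 for HP4, -0.15 for HP3 and -0.03 for Jra. The median Su(var)3-9 ratio of their testis-library probes was 0.08, against -0.02 for their other probes, and both lay under the 0.21 of all testis-library probes. The widest gaps were those of Gpdh3, a glycerol-3-phosphate dehydrogenase gene, and Cnx99A, the gene of the chaperone calnexin. The Su(var)3-9 means of Gpdh3 were 0.24 on the testis-library probe and -0.79 on the other, and those of Cnx99A were -0.07 and -0.87. Svil and Eato followed, with HP1 means of 0.58 and 0.31 on the testis-library probe and 1.28 and -0.64 on the other.

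A small set of testis-library probes carried very high ratios with nearly every heterochromatin protein. The probe of puf, a ubiquitin protease gene on 3R, read 2.77, 3.81, 2.47 and 2.41 on the HP1 arrays, 2.87, 3.41 and 3.31 on the Su(var)3-9 arrays and 3.68, 2.87, 3.74 and 3.32 on the HP4 arrays. Its Jra arrays read -0.68, -0.66 and -0.56. All of its HP1, Su(var)3-9 and HP4 values were high and all Jra values were under 0, with no overlap. The fitted HP4 mean was 3.40 ± 0.26 (SE, limma adjusted p = 2.62e-11) and the Su(var)3-9 mean was 3.25 ± 0.30 (adjusted p = 6.85e-09). For HP3 puf read 1.81, -0.44, 1.33 and 0.99, the value under 0 being on the doubted array.

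tefu, the fly gene of the DNA damage kinase ATM, which also protects telomeres, read 3.81, 3.49, 2.46 and 2.06 with HP1. With Su(var)3-9 it read 2.36, 2.67 and 2.34, and with Jra -1.13, -1.17 and -0.41. Every HP1 array was above every Jra array for this gene too, and its HP1 mean of 2.96 ± 0.24 (SE, limma adjusted p = 1.44e-10) led the named testis-library probes. Rcd7, named for an effect on centrosomes in a cell culture screen, and the uncharacterised CG13531 and CG40053 had HP1 means of 2.50, 2.42 and 2.23, with HP4 means of 2.87, 2.72 and 2.65. The probes of puf, tefu, Rcd7 and CG13531 belong to the arms, and CG40053 has no chromosome in the table used. Unnamed probes were frequent at the top: they made up 7 of the 20 highest testis-library probes for HP1 and 6 of 20 for each of the other 5 heterochromatin proteins.

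COX4L, a paralogue of subunit 4 of cytochrome c oxidase near the centromere of 2R, ranked its proteins differently. It read 2.70, 3.50, 2.14 and 2.37 with HP1 and 3.13, 1.44, 3.08 and 2.40 with HP3, but 0.99, 1.59 and 0.87 with Su(var)3-9. The HP1 values were all above the Su(var)3-9 values, and the only HP3 value inside their range came from the doubted array. Its means were 2.68 ± 0.23 for HP1 (adjusted p = 4.86e-10), 2.51 ± 0.23 for HP3 (9.31e-08) and 1.14 ± 0.27 for Su(var)3-9 (0.00201, SE and limma adjusted p in each case). It was called for all 6 heterochromatin proteins, and its Jra values of 0.94, 1.14 and -0.31 did not pass (adjusted p = 0.151). fan, a gene of the VAP family, was the next HP3 gene, at 1.26, 0.31, 1.89 and 1.38 (mean 1.21 ± 0.18, limma adjusted p = 4.91e-05).

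Further genes stood among the highest named probes. PDZ-GEF, an exchange factor for the small GTPase Rap1, was called for every heterochromatin protein but HP3. It read 3.32, 3.18, 1.27 and 0.94 with HP4 (mean 2.18), and its HP1 values of 2.95, 2.55, 0.60 and 0.69 were likewise high on replicates 1 and 2. Wnk, a kinase gene of ion balance, read 1.72, 1.47, 1.68 and 1.43 with HP5 (mean 1.57). CG15459 had the second highest Su(var)3-9 mean by size among the named probes, 2.66, from values of 0.78, 0.73 and 6.26. That mean rested on 1 array: without Su(var)3-9 replicate 3 it was 0.74, with a limma adjusted p of 0.37. Of the remaining HP3 genes, CG31875 and CG9967 were no longer called without the doubted array, CG6441 was lost without replicate 1 or without replicate 2, and tilB, an assembly factor of ciliary dynein, was lost without any single HP3 array.

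Some testis-library probes lay well below 0. CG1332 read -1.55, -1.77 and -1.42 with Su(var)3-9 and -1.56, -1.07, -1.47 and -1.39 with HP5, against 1.21, 1.10 and 1.33 with Jra. All its Su(var)3-9 and HP5 values were under all its Jra values. CG43999 read -1.43, -1.53 and -1.81 with Su(var)3-9 but 1.06, 0.31, 1.30 and 1.61 with HP1, so these 2 proteins had opposite signs at this gene, with means of -1.57 ± 0.29 and 1.07 ± 0.25 (SE; limma adjusted p = 0.000133 and 0.00242). CG4935 was next lowest for Su(var)3-9, with a mean of -1.49. For HP4 the lowest were CG14605, dgt2, a subunit of the microtubule-nucleating augmin complex, and KrT95D, with means of -1.53, -1.45 and -1.43. Each of those 3 was lowest on HP4 replicate 2, and without it the means were -0.88, -0.86 and -0.91, still past the threshold. For HP5, CG5793 (-1.33) and bb8 (-1.17), a glutamate dehydrogenase gene used in sperm mitochondria, followed CG1332 (-1.37). The lowest named probes of HP1 (CG5435, CG11885 and CG14402), HP3 (CG8100, CG13457 and CG12698) and HP6 (CG17110, CG9945 and CG13693) had means between -0.95 and -0.70, and each was lost when at least 1 array of its protein was left out.

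**Figure D4:**
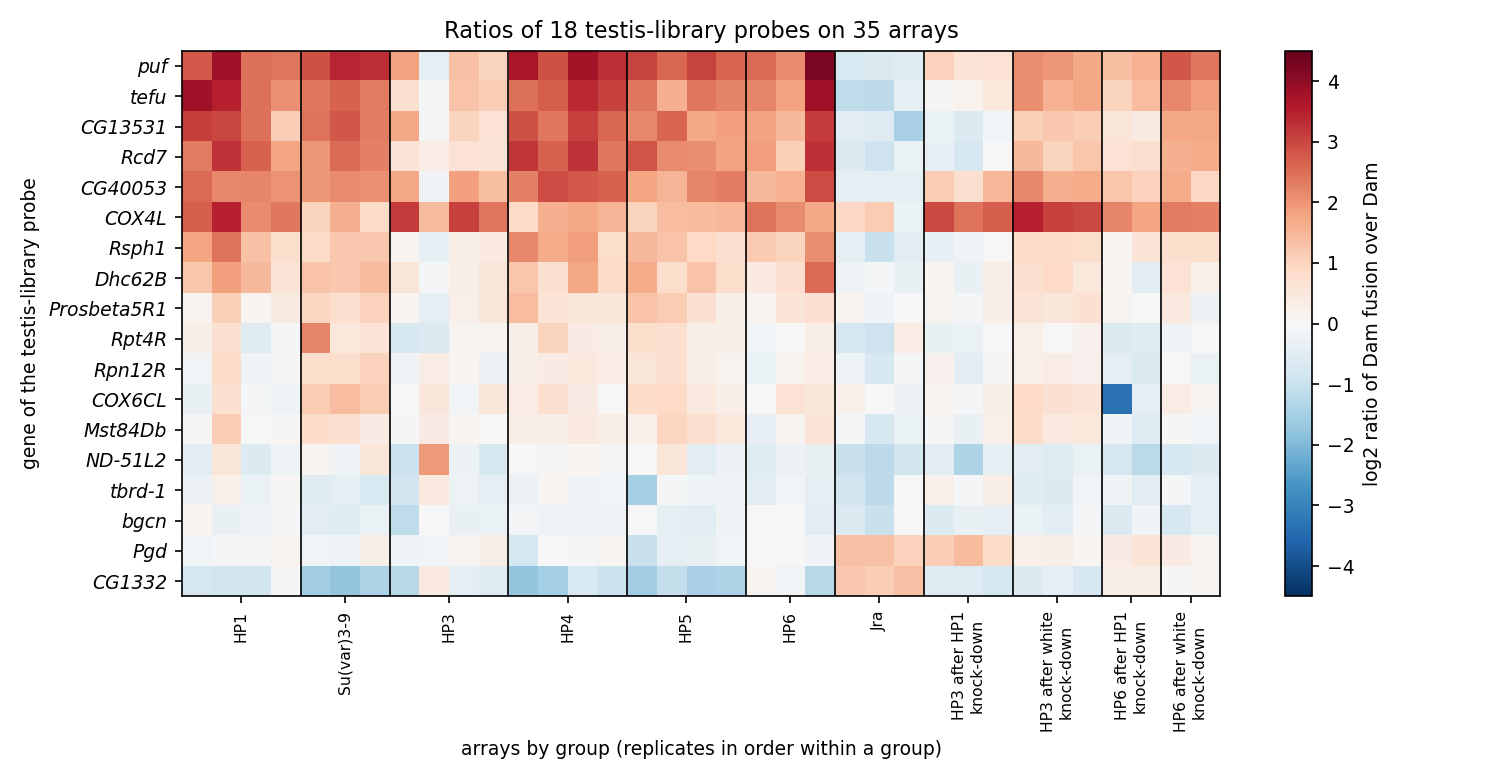
Rows are testis-library probes by gene, columns are the 35 arrays by group, and colour gives the log2 ratio of Dam fusion over Dam, red above 0 and blue below. puf to COX4L are red with nearly all heterochromatin fusions. Prosbeta5R1 to Mst84Db are red with Su(var)3-9 and, by their means, less so with HP5 and HP4. The gap between Su(var)3-9 and HP5 is narrow for Prosbeta5R1 and Mst84Db. CG1332 is blue with Su(var)3-9 and red with Jra.

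Pgd led the named probes with Jra. It encodes the pentose phosphate enzyme phosphogluconate dehydrogenase and read 1.30, 1.31 and 1.02 (mean 1.25 ± 0.15, SE, limma adjusted p = 1.68e-06), while none of its HP1 and Su(var)3-9 values went over 0.26. CG1332, CG43999, RhoGAP92B, CG8097 and Fer2LCH, the light chain of ferritin, had means from 1.09 to 1.23. The lowest was CG14736, with a mean of -2.58 from -6.45, -0.89 and -0.48, of which the first value stood far from the others, and without replicate 1 the mean was -0.69. laf was lower than 0 to a similar degree on all 3 arrays, at -1.09, -1.32 and -1.15, and CG15865 had a mean of -1.18. CG8097 no longer passed without Jra replicate 3, nor CG15865 without replicate 1 or without replicate 2.

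Set directly against Jra, the mean of the 6 heterochromatin proteins was higher on 286 testis-library probes, or 31.6%, where 16.9% of all probes were called. It was lower on 70, or 7.74%, where 19.1% of all probes were. The median of the difference was 0.32 over testis-library probes and 0.00 over other probes. puf (3.30), tefu (3.17), CG13531 (2.99), Rcd7 (2.70) and CG14736 (2.50, but 0.59 without Jra replicate 1) had the largest positive differences. The largest negative ones were those of CG1332 (-2.17), CG43999 (-1.59), Fer2LCH (-1.49), Sfxn1-3, a sideroflexin of mitochondria (-1.48), and RhoGAP92B (-1.45). The count above 0 was 149 without Jra replicate 1 (16.5%, against 9.07% of all probes) and 120 without Jra replicate 2 (13.3%, against 8.97%). Below 0 the numbers were then 37 and 39.

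Among genes with a known place in sperm development, 38 testis-library probes were on the lists used. Su(var)3-9 bound 10 of these (26.3%, against 15.8% of all probes), near the 29.0% of the whole testis library. It lay below 0 on 1 (2.63%, against 17.4%), and its median over the list was 0.25, against 0.00 over all probes. On list genes with probes of other libraries the Su(var)3-9 counts varied. It bound 0 of 8 such probes for sperm tail and axoneme genes and 3 of 6 for spermatocyte translation and meiotic division. HP4 bound 10 (26.3%, against 19.7% of all probes) and HP5 bound 9 (23.7%, against 18.4%). HP1 and HP6 bound 3 each (7.89%, against 8.48% and 7.05% of all probes) and HP3 bound 2 (5.26%, against 4.38%), shares near the background. Jra bound none of the 38 and lay below 0 on 6 (15.8%), a share close to that of the whole testis library.

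Of the testis proteasome subunits, which replace the common subunits in developing sperm, Su(var)3-9 bound 3 of 9. HP4 and HP5 also bound 3 of 9 each, and HP4 lay below 0 on 1. Over all probes the bound shares were 15.8% for Su(var)3-9, 19.7% for HP4 and 18.4% for HP5. Prosbeta5R1 read 0.98, 0.75 and 1.05, Rpn12R 0.79, 0.81 and 1.05, and Rpt4R 2.20, 0.48 and 0.60 with Su(var)3-9. All 9 values were above 0, and only the first Rpt4R value stood apart from its pair. The HP1 values of Prosbeta5R1 were 0.17, 1.06, 0.11 and 0.40, and none of the 9 subunits was called for HP1. COX6CL, a respiratory chain paralogue on 2L, read 1.15, 1.38 and 1.16 with Su(var)3-9 (mean 1.24 ± 0.28, SE, limma adjusted p = 0.00137) and -0.34, 0.71, -0.08 and -0.20 with HP1. It differed in this from COX4L of the same list, whose HP1 values were the higher ones. ND-24L of complex I was called for HP4 and HP5, at 0.46 and 0.45.

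The axoneme is the microtubule core of the sperm tail. Rsph1, a radial spoke head gene, read 1.77, 2.45, 1.31 and 0.78 with HP1 and 0.86, 1.22 and 1.21 with Su(var)3-9, and Dhc62B, a dynein heavy chain of the axoneme, read 1.26, 1.85, 1.47 and 0.59 and 1.28, 1.21 and 1.43. These genes were called for 5 of the 6 heterochromatin proteins, HP3 being the exception, and their values with HP1 and with Su(var)3-9 overlapped. Mst84Db, a sperm tail protein, read 0.82, 0.73 and 0.36 with Su(var)3-9 (mean 0.64, limma adjusted p = 0.0124), whereas its neighbour Mst84Da of the same cluster had a Su(var)3-9 mean of -0.76 and was called below 0. Sequences of such close relatives may cross-hybridise on cDNA spots.

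The regulators of the male germ line gave few calls with the heterochromatin proteins. Of the list of meiotic arrest genes, comr, topi and wuc were called for no single protein. In the contrast of heterochromatin proteins against Jra 1 of these 3 probes was called above 0, and 1 rose in the HP3 knock-down contrast. The bromodomain genes tbrd-1 and tbrd-2 lay below 0 with Jra, with means of -0.64 ± 0.22 and -0.71 ± 0.18 (SE; limma adjusted p = 0.0457 and 0.00611), from -0.81, -1.17 and 0.02 and from -1.12, -1.0 and -0.06. Replicate 3 of Jra was near 0 in both cases. eIF4E5, a spermatocyte form of the cap-binding factor, was called for Su(var)3-9 at 0.54. ProtA, which packs sperm DNA as a protamine, was called for HP4 (1.73, 1.87, 0.18 and 0.24) and for HP3 (0.23, 2.04, 0.03 and 0.46, the high value being on the doubted array). Its fellow on the list, Prtl99C, was called for no protein, and neither was S-Lap5, a leucyl aminopeptidase gene of sperm. bgcn, which lets germ cells differentiate, lay below 0 with Jra (mean -0.52, limma adjusted p = 0.0401).

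Neighbouring genes were used to see how far each protein's calls extended. For 792 testis-library genes the nearest gene measured by a probe of another library was taken from the gene order. Calls were counted here by gene, so a gene also on another library could be called through that probe. For Jra 35 genes counted as bound, against 34 testis-library probes in the counts by probe. Where HP1 bound the testis-library gene, it bound the neighbour in 15 of 48 cases (31.2%), against 4.30% where it did not. For Su(var)3-9 the figures were 40 of 236 (16.9%) and 86 of 556 (15.5%). Calls below 0 did go together for Su(var)3-9: where it lay below 0 on the testis-library gene it did so on the neighbour in 23 of 71 cases (32.4%), against 16.2% elsewhere. This was not particular to Su(var)3-9: for HP5 it was 29 of 72 (40.3%), against 16.9%, and for HP4 34 of 108 (31.5%), against 23.0%. For HP1 it was 0 of 23, against 3.64%. Bound calls of HP6 resembled those of HP1, at 25.0% and 3.19%, and HP4 and HP5 lay between, at 23.9% and 16.3% and at 23.5% and 16.2%. For Jra they were 28.6% and 9.91%. Across the 792 gene pairs, which share arrays, the ratios of a testis-library gene and its neighbour correlated at r = 0.331 for HP1, 0.189 for Su(var)3-9 and 0.184 for HP4. Runs of consecutive measured genes that were all bound by Su(var)3-9 and held at least 2 testis-library genes numbered 20, with 43 of the 236 bound testis-library genes in them. The longest had 4 genes: Gld, RacGAP84C, nxf4 and Mst84Db on 3R, and CG8929, CG13870, CG16741 and Obp57c on 2R. No run held a gene bound by HP1, which was called on 14.1% of the testis-library probes bound by Su(var)3-9. Runs were not counted for genes of other libraries, so whether 20 exceeds the background was not tested.

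After HP1 knock-down the HP3 ratios of testis-library probes lay lower as a set, while the number of probes that passed depended on which arrays entered the fit. Taken alone, HP3 after HP1 knock-down lay above 0 on 98 testis-library probes (10.8%, where 19.8% of all probes did) and below 0 on 104 (11.5%, where 8.04% did). After white knock-down it lay above 0 on 52 (5.75%, where 7.35% did) and below 0 on 12 (1.33%, where 2.88% did). In the contrast of both, the ratio was higher than after white knock-down on 39 of them (4.31%, where 7.43% of all probes were called) and lower on 5 (0.553%, where 0.443% were). A fit on these 6 arrays alone gave 85 higher (9.40%, where 16.9% of all probes were called) and 113 lower (12.5%, where 7.07% were), so the balance of higher and lower calls turned round. In both fits the testis-library share of higher calls was under that of all probes. For lower calls it was over that of all probes in the fit on 6 arrays and near it in the fit over all arrays. The median of the difference was -0.25 over testis-library probes and -0.01 over other probes. On single arrays the testis-library median minus that of other probes was -0.13, -0.25 and -0.05 after HP1 knock-down, against 0.02, 0.08 and 0.10 after white knock-down. All 3 arrays of HP1 knock-down lay under all 3 of white knock-down. The 3 arrays of the HP1 knock-down did not overlap those of the control on 296 probes that were lower (32.7%, against 18.5% of all probes) and on 120 that were higher (13.3%, against 23.5%). Of the 19 testis-library probes bound by HP3 in untreated cells, 12 were among the lower ones (63.2%) and 0 of these passed. Most of the lower probes thus had no HP3 call in untreated cells. Without replicate 2 of the HP1 knock-down 13 testis-library probes rose (1.44%, against 1.81% of all probes) and 0 fell (0.0%, against 0.0302%). Without replicate 2 of the white knock-down 25 rose (2.77%, against 3.74%).

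Rcd7, tefu and CG13531, which led for the heterochromatin proteins, were among the probes whose HP3 ratio fell. Rcd7 read -0.38, -0.75 and 0.02 after HP1 knock-down, against 1.46, 0.99 and 1.24 after white knock-down (difference -1.60 ± 0.38, SE, limma adjusted p = 0.00632). tefu read 0.04, 0.14 and 0.47, against 2.10, 1.58 and 1.75 (-1.59 ± 0.39, adjusted p = 0.00865). The groups did not overlap for either gene, which the rule for naming fallen genes required. CG13531 fell by 1.49, Wnk fell by 1.18 and CG46298, named because so few fell, fell by 1.00. COX4L stayed high, at 2.95, 2.45 and 2.70 after HP1 knock-down, against 3.50, 3.07 and 2.98 after white knock-down, and its difference of -0.48 ± 0.38 did not pass (adjusted p = 0.58). fan read 1.96, 2.34 and 2.23, against 2.68, 1.91 and 2.10, with overlapping groups. Of the 61 testis-library probes bound by HP1, 37 (60.7%) were lower on all 3 arrays of HP1 knock-down than on any of white knock-down. That compares with 18.5% of all probes and with 393 of the 781 other probes bound by HP1 (50.3%).

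Among the probes that rose, Scox had the largest difference. Scox, a copper chaperone for cytochrome c oxidase, read 2.69, 3.20 and 2.50 after HP1 knock-down, against 0.66, 0.07 and 0.34 after white knock-down (difference 2.44 ± 0.36, SE, limma adjusted p = 8.51e-05). dgt2 read 2.36, 2.77 and 1.86, against 0.79, 0.61 and 0.23 (1.79 ± 0.46, adjusted p = 0.0129). Neither gene's groups overlapped, which the rule for naming risen genes required. Rpn3, a subunit of the proteasome lid, rose by 1.69 and CG11226 by 1.83. dgt2 and Rpn3 no longer passed without replicate 2 of the HP1 knock-down. With Su(var)3-9 these 4 genes all lay below 0 on every array, Scox at -0.89, -1.29 and -1.36.

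**Figure D5:**
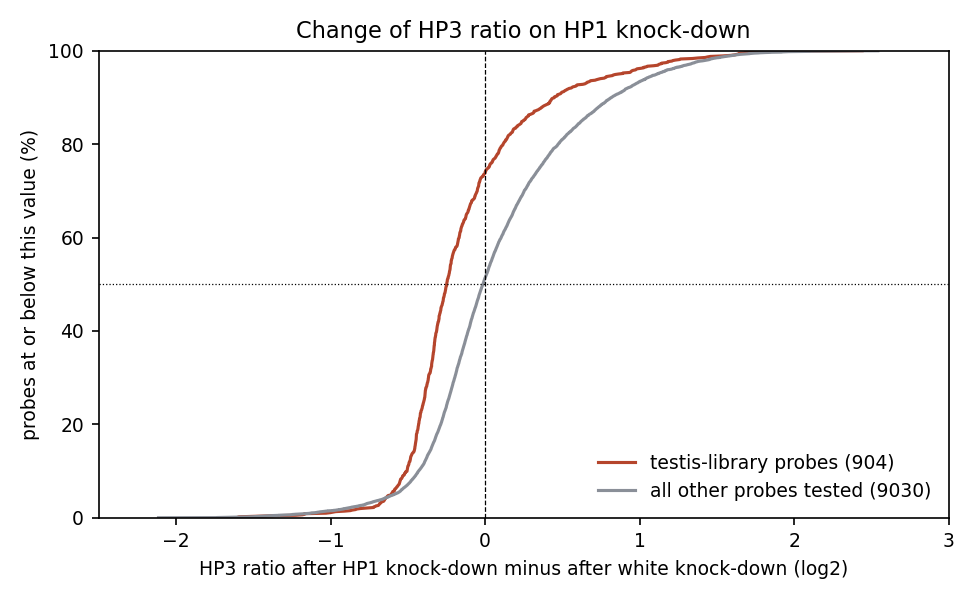
The curves give the percentage of probes at or below each value of the HP3 log2 ratio after HP1 knock-down minus after white knock-down, for testis-library probes (904) and all other probes tested (9030). The testis-library curve crosses 50% at -0.25 and the other curve at -0.01.

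The HP6 ratio gave no call between the knock-downs on testis-library probes, while their values as a set lay somewhat lower. The median of the difference was -0.07 over testis-library probes and 0.02 over other probes. On single arrays the testis-library median minus that of other probes was -0.16 and -0.23 after HP1 knock-down, against -0.08 and -0.12 after white knock-down, so both arrays of HP1 knock-down lay under both of the control. Without overlap 232 probes were lower (25.7%, against 18.0% of all probes) and 130 higher (14.4%, against 22.2%). The lower ones included 25 of the 49 testis-library probes that HP6 bound in untreated cells. After HP1 knock-down alone 24 probes lay above 0 (2.65%, where 4.63% of all probes did) and 15 below (1.66%, where 0.674% did), and after white knock-down 25 (2.77%, where 4.21% did) and 9 (0.996%, where 0.765% did). Between HP1 and white knock-down 0 of 904 rose and 0 fell by limma's adjusted p, where 0.0% and 0.0201% of all probes were called. At an unadjusted limma p under 0.05 there were 4 higher (0.442%, against 1.03% of all probes) and 9 lower (0.996%, against 0.715%). The largest fall was that of COX6CL, which read -3.35 and -0.40 after HP1 knock-down, against 0.35 and 0.10 after white knock-down (-2.10 ± 0.49, adjusted p = 0.278). It rested on 1 array: without replicate 2 of the HP1 knock-down the difference was -3.63, and without replicate 1 it was -0.57. Either leaves 1 array of that group, whose spread is then taken from the other groups, so no p is given for them. CG34124 (-1.33, but -0.17 without replicate 1 of the white knock-down) and CG13531 (-1.27) followed among the lower ones and CG31974, CG2604 and rnh1 among the higher ones (1.09, 0.68 and 0.64), all with an adjusted p of 1.0. The difference between the HP3 and the HP6 effect of the knock-down passed at 0 testis-library probes by limma, where 0.0% of all probes passed. At an unadjusted limma p under 0.05, 28 were higher (3.10%, against 4.39% of all probes) and 2 lower (0.221%, against 0.634%).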

How the data were processed

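The values are the series' table of log2 ratios of Dam fusion over Dam, deposited by the authors, on 35 2-colour cDNA arrays with dyes swapped on part of them. No source used here names the base of the logarithm. It was read as 2, which sets the printed sizes but not the tests. Array medians lay between -0.00017 and 0.00027. Background correction, normalisation and build: not given in the sources used here. Without spot intensities, signal over background is unknown, and the number of arrays limits the precision. Of all values 434 were missing, 13 of them on testis-library probes. All columns were matched to a sample by their labels.

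Probes were named through the platform annotation and a RefSeq gene table of Release 6, used only for names, chromosomes and gene order. Each array was centred on its median. limma 3.58.1 in R 4.3.3 was fitted to all 35 arrays with 11 group means and a dye term, on 9934 probes with at least 2 values in each group (59 left out). Residual degrees of freedom were 23 and prior ones 6.91. P-values were two-sided and adjusted by Benjamini-Hochberg over all probes of a comparison, with a threshold of 0.05. The dye term passed for 65 probes. The fit was tested on simulated data.

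The members, the gene lists and the rule for named genes were chosen with earlier results of these data known. The rule took, from probes with 1 gene, the 6 highest and 3 lowest called probes per protein with the same sign on every array, the 5 highest and 5 lowest against Jra, the 4 most risen and fallen of each knock-down (or the 3 of lowest p), up to 3 members per gene list by their mean over the heterochromatin proteins, and the 4 genes whose probes of 2 libraries differed most. Risen and fallen probes had to pass with arrays of HP1 and white knock-down that did not overlap, unless taken by lowest p. No Y-linked gene of the lists is on the array. Alternatives were no dye term, scaling of arrays to one spread, probes without missing values, the replicate number as a block, fits without the doubted arrays, on the compared groups alone, and without each array.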

Additional observations from a re-analysis of the deposited data

Results flagged for a closer look

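Of 40 values tested for an array far from the others of its group, 3 were found. A rate of 1 in 20 would hold for independent values, but these share arrays and include genes chosen as highest or lowest. Whether 3 is more than chance gives was therefore not tested. The CG9967 probe read 2.64 on the array labelled HP3 replicate 2, against 0.01, 0.21 and 0.44 on the other HP3 arrays. The bb8 probe read -2.0 on the array labelled HP5 replicate 1, where the other HP5 arrays read -0.99, -0.87 and -0.80. The testis-library median exceeded that of the other probes by 0.34 on the array labelled HP5 replicate 2, against 0.11, 0.13 and 0.12 on the other 3.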

How the results depend on the processing

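No called result changed sign, but leaving out 1 array took the median difference of testis-library and other probes from -0.03 to 0.11 for HP1, -0.08 to 0.03 for HP3 and -0.04 to 0.14 for HP6. The testis-library share bound by Su(var)3-9 and the share below 0 for Jra were above those of all probes in all 7 settings and whenever an array of the protein was left out, and the HP1, HP3, HP6 and Jra shares above 0 were not above it in any. The cause of the following moves was not tested, except that fits on fewer arrays have fewer degrees of freedom. With the arrays of the compared groups alone, HP1 gave 35 probes above and 0 below 0, HP3 0 and 0, HP4 29 and 3, Jra 97 and 329, and the HP3 knock-down contrast 85 and 113. With arrays scaled to one spread, HP1 gave 38 below, HP3 47 above and 71 below, HP4 149 and 72, HP6 30 below and the HP3 knock-down contrast 13 below. Without the 2 doubted arrays, HP3 gave 41 below, HP6 31 above and 7 below, and the HP3 knock-down contrast 10 below. The Su(var)3-9 median difference was 0.19 with scaled arrays, 0.27 over genes on no other library and 0.22 with means. Leaving out 1 array gave, above and below 0, 43 to 56 and 2 to 56 for HP1, 156 to 184 and 38 to 47 for Su(var)3-9, 12 to 18 and 0 to 35 for HP3, 132 to 235 and 87 to 115 for HP4, 96 to 182 and 28 to 64 for HP5, 31 to 58 and 6 to 8 for HP6, 16 to 35 and 34 to 117 for Jra, 120 to 319 and 37 to 81 for heterochromatin proteins against Jra, 13 to 38 and 0 to 6 for the HP3 knock-down contrast, and 0 to 0 and 0 to 1 for that of HP6. With the replicate number as a block, 12 probes lay below 0 for HP6, and no other count moved by over 1.5 times; the numbers were not taken as pairs, since same-numbered HP3 knock-down arrays correlated at 0.0949, 0.0706 and 0.233 and the HP6 ones at 0.159. Of the named probes, 71 of the refits lost a call and 1 gained one.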
